A study of Mus musculus with 38 samples.

Results

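RNA levels in wild-type mouse embryonic stem (ES) cells 6 h after removal of the SWI/SNF inhibitor BRM014 were compared with those in cells kept in the vehicle, DMSO, for 24 h. The comparison rests on 4 of the 38 libraries of the series: 2 from cells that had 24 h of BRM014 followed by a 6 h washout, and 2 from cells given DMSO for 24 h. They were chosen by their labels for treatment, drug time, washout time and batch. All 4 come from wild-type ES cells of the 129S6/SvEvTac strain, cultured on gelatin with serum and LIF, and all 4 carry the batch number 2450. The same batch, called the first here, holds 11 further groups of 2, among them BRM014 at 10 uM for 24 h, washout for 24 h after 24 h of BRM014, DMSO for 1 h, and an inactive analog at 10 uM for 24 h. A second batch of 12 libraries holds BRM014 (10 uM, 24 h) and DMSO (24 h) in wild-type cells and in 2 knockout lines, labelled Ino80 and Snf2h knockout. For the washout groups the labels state times but not the dose. No group was washed after vehicle alone, and no vehicle group matches the total time of the washout, so washing and the later harvest cannot be told apart from the removal of the drug. The replicates are called biological, but their cultures and days are not stated, so p-values measure only how far these samples vary, and some of that variation may be technical.

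SWI/SNF (BAF) complexes use ATP to slide and evict nucleosomes, which keeps promoters and enhancers open to transcription factors. Their motor subunit is BRG1 (Smarca4) or BRM (Smarca2), and BRM014 blocks the ATPase activity of both while the proteins remain in place. In ES cells BRG1 is the prevailing motor, and the complex works at enhancers bound by the pluripotency factors. Smarca4 has 0 counts in every library of the deposited table, as do 32977 of its 55385 genes, so a count of 0 says nothing of expression here.

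The washout libraries held 22.18 and 19.68 M counts and the DMSO libraries 21.56 and 19.35 M. Levels are given as CPM, counts scaled to the library total after TMM normalisation, and a gene is said to be called at a Benjamini-Hochberg adjusted p under 0.05 in edgeR's quasi-likelihood test over the 12517 genes tested. All 12 ES cell markers were detected, and their summed level was 8850 and 8700 CPM after washout and 7840 and 7830 CPM in DMSO. Fibroblast, trophectoderm and mesoderm markers each summed to under 25 CPM in all 4 libraries. Among them Col1a2, Col3a1, Gata3, Tpbpa, Msgn1 and Foxf1 were at 0 in all 4, so the low sums do not show that such cells were absent. Primitive endoderm markers summed to 236 and 238 CPM after washout and 237 and 264 CPM in DMSO, with Pdgfra and Hnf4a at 0, and neural progenitor markers to 147 and 138 CPM after washout and 62.2 and 61.4 CPM in DMSO. In bulk RNA, fewer cells of a type and less RNA per cell cannot be told apart.

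At 6 h after washout, the transcriptome was far from the vehicle level in both directions. Of the genes tested, 4983 (39.8%) were called, 2605 higher (20.8%) and 2378 lower (19%) in washout cells. A change of at least 2-fold was reached by 983 (7.85%), of which 695 (5.55%) were higher and 288 (2.3%) lower. The median log2 change over all genes was 0.02, and for well-expressed genes the 95% interval had a median half-width of 0.19 log2. In 347 of the 695 genes (49.9%) both washout libraries lay above all 24 other libraries of the first batch. In 67 of the 288 (23.3%) both lay below all 24. These genes were chosen on the same washout libraries, and the share over all genes was not computed. Such counts, here and for the genes named below, are therefore a description. The comparison uses the DMSO 24 h libraries alone, and vehicle cells were not constant: 2320 genes (18.5%) were called between DMSO 24 h and DMSO 1 h. With DMSO 1 h as the vehicle, where 19.4% of all genes were called higher and 18.3% lower, 511 of the 695 were still called higher and 2 were called lower. Of the 288, 221 were still called lower and 0 were called higher. Both comparisons use the washout libraries on which these genes were chosen, so the agreement is partly fixed by that choice.

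Among the 12 rises named by size the first was Kdr, which encodes the VEGF receptor of endothelial and early mesodermal cells (chr5:75932827-75978458, minus strand, GRCm38). Kdr had 38.7 and 42.2 CPM after 6 h of washout, against 2.66 and 2.10 CPM in DMSO 24 h (log2 change 4.08 ± 0.22 SE, adjusted p = 1.26e-13). No other library of the first batch passed 5.35 CPM. Kdr averaged 3.94 CPM at the end of the drug treatment and 1.84 CPM after 24 h of washout, so the high level was seen at the 6 h point of the washout alone among the times sampled. In the second batch the drug itself did not pass the test for Kdr (log2 change 0.36, adjusted p = 0.217). In the first batch Kdr was called higher with the drug over DMSO 24 h (log2 change 0.72, adjusted p = 0.0352).

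Cyp2b23, a cytochrome P450, had 52.6 and 49.2 CPM after washout, against 3.58 and 4.19 CPM in DMSO (log2 3.71 ± 0.16). Esam, an adhesion molecule of endothelial junctions, had 42.9 and 37.8 CPM after washout, against 6.89 and 5.24 CPM in DMSO (log2 2.73 ± 0.15). Crabp2, which carries retinoic acid to its nuclear receptors, had 22.4 and 20.6 CPM after washout, against 3.4 and 3.41 CPM in DMSO (log2 2.66 ± 0.20). In these 3 genes and in Kdr, Exoc3l, Dusp27, Enpp3, Tnfrsf25 and Irgm1, both washout libraries were above all 24 other libraries of the batch. Dusp27, an atypical member of the dual-specificity phosphatase family, had 194 and 184 CPM after washout, against 38 and 35.3 CPM in DMSO (log2 2.36 ± 0.09). Enpp3, an ectonucleotidase, had 339 and 337 CPM after washout, against 65.6 and 70.4 CPM in DMSO (log2 2.31 ± 0.07). Over the 12 named rises the log2 change ran between 2.29 and 4.08, with adjusted p of at most 2.48e-09. The groups overlapped in none of the 12, which the naming rule itself required.

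**Figure D1:**
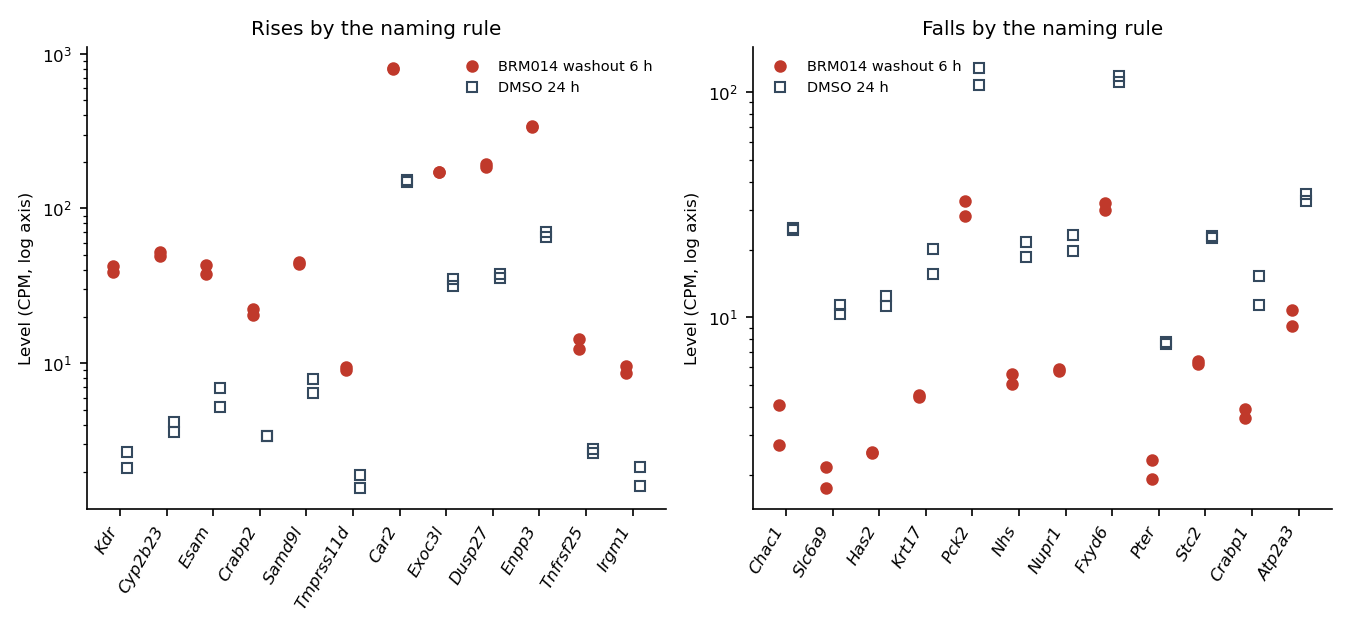
Level per library (CPM, log axis) of the 12 rises (left) and 12 falls (right) named by rule, with BRM014 washout 6 h as filled red circles and DMSO 24 h as open squares. Kdr sits near 40.5 CPM after washout and 2.38 CPM in DMSO, and Chac1 sits between 2.72 and 4.06 CPM after washout and at 24.5 and 25 CPM in DMSO.

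The 12 falls named by size were of mixed function, and the first by size was Chac1. Chac1, a glutathione-degrading enzyme, had 4.06 and 2.72 CPM after washout, against 25 and 24.5 CPM in DMSO (log2 -2.85 ± 0.16, adjusted p = 6.9e-14). Slc6a9, a glycine transporter, had 1.74 and 2.17 CPM after washout, against 11.3 and 10.3 CPM in DMSO (log2 -2.47 ± 0.20). Pck2, the mitochondrial phosphoenolpyruvate carboxykinase, had 32.8 and 28.1 CPM after washout, against 128 and 108 CPM in DMSO (log2 -1.95 ± 0.09). In all of these the libraries of the groups stood far apart. Has2, a hyaluronan synthase, had 2.50 and 2.52 CPM after washout, against 11.2 and 12.5 CPM in DMSO, and was below every other library of the batch. Its mean was 40.1 CPM after 6 h of drug and 19.9 CPM after 24 h of drug. Stc2, a secreted stanniocalcin glycoprotein, had 6.38 and 6.2 CPM after washout, against 22.4 and 22.9 CPM in DMSO (log2 -1.85 ± 0.13). Over the 12 named falls the log2 change ran between -2.85 and -1.77, and 4 of the 12 were below all 24 other libraries.

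To ask which part of the drug response had come back, genes were sorted by their response to 24 h of BRM014 in the second batch, whose libraries take no part in the washout comparison. There, 975 of 13130 genes (7.43%) were called at least 2-fold lower with the drug and 653 (4.97%) at least 2-fold higher; 950 and 601 of them were tested in the first batch. Of the 950 drug-lowered genes, 498 (52.4%) were not called against vehicle after 6 h of washout, 281 (29.6%) were still lower and 171 (18%) were now higher. The genes not called had a lower median log2 CPM (0.68) than those still lower (2.78) or now higher (2.46). At low levels a missing call does not show a return to vehicle. The share still lower was above the 19% of all genes called lower, and the share now higher was near the 20.8% of all genes called higher. Against the inactive analog at 24 h the balance turned, with 144 of these genes called lower and 331 higher. At 2-fold, 122 (12.8%) were lower and 91 (9.58%) higher, beside 2.3% and 5.55% of all genes. The median log2 change of these 950 was -0.21 after washout over DMSO 24 h, beside -1.7 with the drug in the second batch. The second-batch values also chose the genes, so the gap between the medians is no measure of recovery.

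Of the 601 drug-raised genes tested, 272 (45.3%) were still higher, 18 (3%) were lower and 311 (51.7%) were not called. Over all genes tested, 20.8% were called higher and 19% lower. Here too the median log2 CPM was lower in genes not called (0.16) than in those still higher (2.33) or lower (3.2). Leaving out washout replicate 1 or 2 gave 10 and 11 genes in place of the 18. At 2-fold, 158 (26.3%) were higher and 4 (0.666%) lower, beside 5.55% and 2.3% of all genes. The median log2 change was 0.58 after washout, beside 1.43 with the drug in the second batch, whose values chose the genes. Read the other way, with 20.6% of all genes called higher and 21.7% called lower by the drug in the second batch, 217 of the 695 genes at least 2-fold higher after washout (31.2%) had been called higher with the drug, 115 (16.5%) lower and 316 (45.5%) neither; the other 47 were not tested there. Of the 288 genes at least 2-fold lower, 159 (55.2%) had been lowered by the drug, 16 (5.56%) raised and 111 (38.5%) neither.

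**Figure D2:**
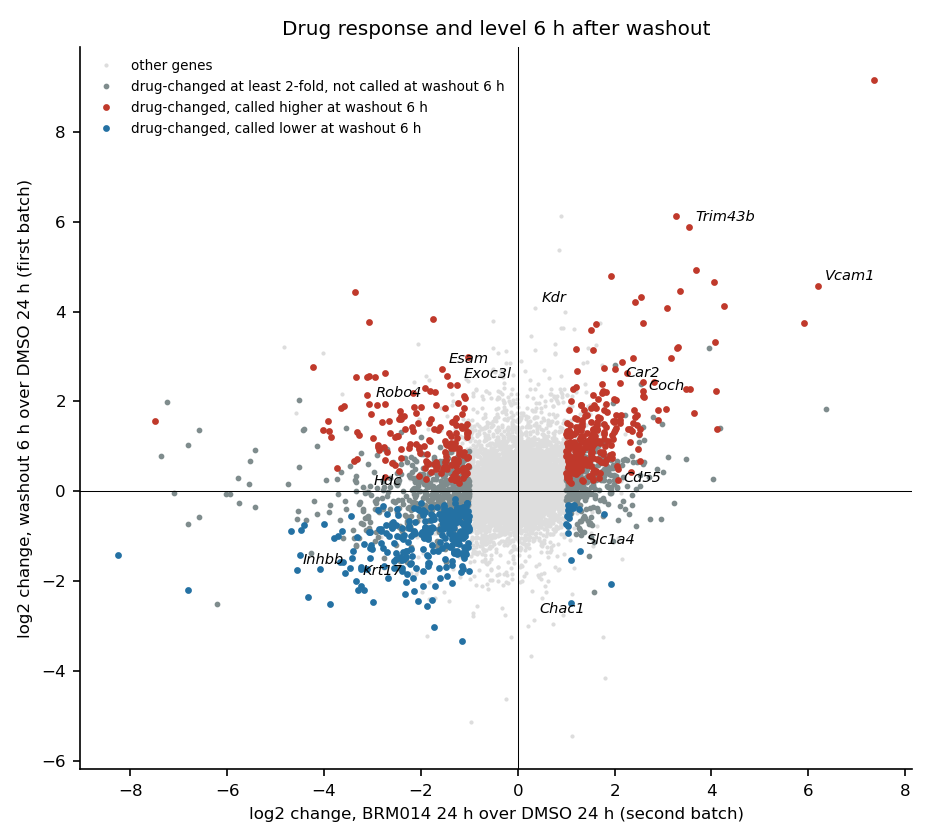
Each point is a gene, with the log2 change by BRM014 24 h over DMSO 24 h in the second batch on the x axis and the log2 change of washout 6 h over DMSO 24 h in the first batch on the y axis. Genes changed at least 2-fold by the drug are grey where not called after washout, red where called higher and blue where called lower; red points outnumber blue on the right (272 and 18), and on the left there are 171 red and 281 blue.

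Inhbb, the beta B subunit of activin and inhibin (chromosome 1), was the most strongly drug-lowered of the genes named as still lower. Inhbb had 78.5 and 79.2 CPM after washout, against 276 and 253 CPM in DMSO (log2 -1.75 ± 0.07, adjusted p = 5.52e-17). Its mean was 8.64 CPM at the end of the drug treatment and 169 CPM after 24 h of washout, so the 6 h level lay between that of the drug and that of vehicle. Krt17, an epithelial keratin, had 4.42 and 4.53 CPM after washout, against 20.1 and 15.5 CPM in DMSO, with a mean of 1.09 CPM at the end of the drug treatment. Atp2a3, a calcium pump of the endoplasmic reticulum, had 10.8 and 9.12 CPM after washout, against 32.9 and 35.3 CPM in DMSO. Fxyd6, a regulator of the sodium pump, differed from these. It had 32.1 and 30.0 CPM after washout, against 118 and 111 CPM in DMSO, and its mean with the drug was 38.6 CPM, so no rise was seen at 6 h. Fxyd6 averaged 85.3 CPM after 24 h of washout. Nhs, the Nance-Horan syndrome gene, and Crabp1, a further retinoic acid carrier, were the other genes named here, with log2 changes of -1.92 ± 0.14 and -1.83 ± 0.18.

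Of the 281 drug-lowered genes still lower at 6 h, 193 were called different from the end of the drug treatment, in either direction (median log2 change 0.86). That count takes both directions, so it cannot be set against the 25.3% of all genes called higher in the same comparison. After 24 h of washout, 177 of the 281 were called higher than at 6 h (19% of all genes), and 98 were still called lower than DMSO (8.52% of all genes), with a median log2 change of -0.24 against DMSO. The 6 h and 24 h values share the DMSO libraries, and the classes were chosen on the 6 h libraries that the 24 h over 6 h counts use again. A return is partly fixed by that choice, so these counts, here and for the classes that follow, are a description.

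Some drug-lowered genes went past the vehicle level. Exoc3l, a relative of an exocyst subunit, had 173 and 172 CPM after washout, against 35.0 and 31.5 CPM in DMSO (log2 2.37 ± 0.10, adjusted p = 7.7e-16). Its mean was 14.0 CPM at the end of the drug treatment and 26.4 CPM after 24 h of washout. Exoc3l stood at 79.8 CPM in DMSO 1 h, and the rise over that vehicle was smaller (log2 1.11). Esam, Dusp27 and Irgm1, an interferon-inducible GTPase, belong to the same class, as does Cphx1, a homeobox gene of the early embryo, with 12.4 and 10.8 CPM after washout and 2.11 and 3.25 CPM in DMSO. In the first batch the drug was not called to lower Cphx1 (log2 -0.17, adjusted p = 0.562). For Robo4, a guidance receptor of endothelial cells, the call depended on the vehicle. Robo4 had 20.5 and 21.0 CPM after washout, against 5.28 and 5.45 CPM in DMSO 24 h (log2 1.95 ± 0.14), and its mean in DMSO 1 h was 20.1 CPM (log2 0.04, adjusted p = 0.813 over that vehicle). Of the 171 genes of this class, 112 were called higher over DMSO 1 h as well (19.4% of all genes), and 6 were called lower (18.3% of all genes). The same washout libraries enter both comparisons.

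Earlier drug times are given as a description. In the first batch, the 171 drug-lowered genes now higher had median log2 changes of -0.15, -0.69 and -1.43 after 1 h, 3 h and 6 h of BRM014 over DMSO 1 h. The 281 genes still lower had medians of -0.08, -0.31 and -0.89 at the same times, and the 498 genes not called had -0.17, -0.69 and -1.16. At 24 h of drug in the second batch the medians of the classes were -1.69 and -1.72. After 24 h of washout, 110 of the 171 were called lower than at 6 h (21.3% of all genes) and 47 were still called higher than DMSO (8.91% of all genes).

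Among drug-raised genes still higher, Car2, a cytosolic carbonic anhydrase, had 806 and 791 CPM after washout, against 153 and 148 CPM in DMSO (log2 2.41 ± 0.06, adjusted p = 1.5e-21). Car2 averaged 1040 CPM at the end of the drug treatment and 222 CPM after 24 h of washout. Samd9l, an interferon-inducible gene, had 43.6 and 45.2 CPM after washout, against 6.43 and 7.92 CPM in DMSO. Its mean with the drug was 43.6 CPM, so no decline was seen at 6 h, and it averaged 4.58 CPM after 24 h of washout. Cyp2b23 and Enpp3 were higher after washout than at the end of the drug treatment, where their means were 23.3 and 232 CPM. Tmprss11d, an airway-type serine protease, and Kitl, the ligand of the KIT receptor, had log2 changes of 2.43 ± 0.22 and 2.21 ± 0.21. Of the 272 genes of this class, 186 were called lower after 24 h of washout than at 6 h (21.3% of all genes), and 74 were still called higher than DMSO (8.91% of all genes).

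Only 4 drug-raised genes met the rule for being named as now lower. Slc1a4, a transporter of alanine, serine and cysteine, had 22.2 and 22.3 CPM after washout, against 55.1 and 55.9 CPM in DMSO (log2 -1.32 ± 0.08). Its mean was 139 CPM at the end of the drug treatment and 61.5 CPM after 24 h of washout. Slc6a9, described above, averaged 23.2 CPM with the drug. Ap3m2, an adaptor complex subunit, and Klb, the beta-Klotho co-receptor of endocrine FGFs, had log2 changes of -0.93 ± 0.12 and -0.71 ± 0.14. In the first batch the drug was not called to raise Klb (log2 -0.24, adjusted p = 0.138), and its fall was not called over the inactive analog (-0.12, adjusted p = 0.521).

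Other strong drug responses had returned near the vehicle level at 6 h. Hdc, histidine decarboxylase, had 7.05 and 6.70 CPM after washout, against 6.80 and 7.02 CPM in DMSO, with a mean of 0.559 CPM at the end of the drug treatment. Wnt7b, a WNT ligand, had 17.8 and 16.5 CPM after washout, against 17.5 and 19.6 CPM in DMSO, with a mean of 2.11 CPM with the drug. The libraries of the groups overlapped in both genes. Cd55, a complement regulator, had 28.8 and 32.3 CPM after washout, against 27.5 and 30.4 CPM in DMSO, with a mean of 88.9 CPM with the drug. Atp10d, a phospholipid-flipping ATPase, had 62.8 and 59.6 CPM after washout, against 52.0 and 63.5 CPM in DMSO, with a mean of 212 CPM with the drug. Krt19, Coro2b, Ildr1, Bmi1 and Mettl7a1 had log2 changes between -0.22 and 0.25, none called. In Krt19, Ildr1 and Bmi1 the groups did not overlap. After 24 h of washout these 3 were called at 0.49, -0.67 and -0.49 over DMSO 24 h, and Cd55 at -0.29. The other genes of this paragraph were not called then. The return holds against DMSO 24 h: over the inactive analog, Hdc was higher by 2.02 and Krt19 by 1.56. All were picked because their 95% interval lay within 0.5 log2 of 0. Atf3, a stress-induced transcription factor picked in the same way, was called higher by 0.24 log2 (adjusted p = 0.0436), a call that was lost in 3 of the 4 fits that left out a library.

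**Figure D3:**
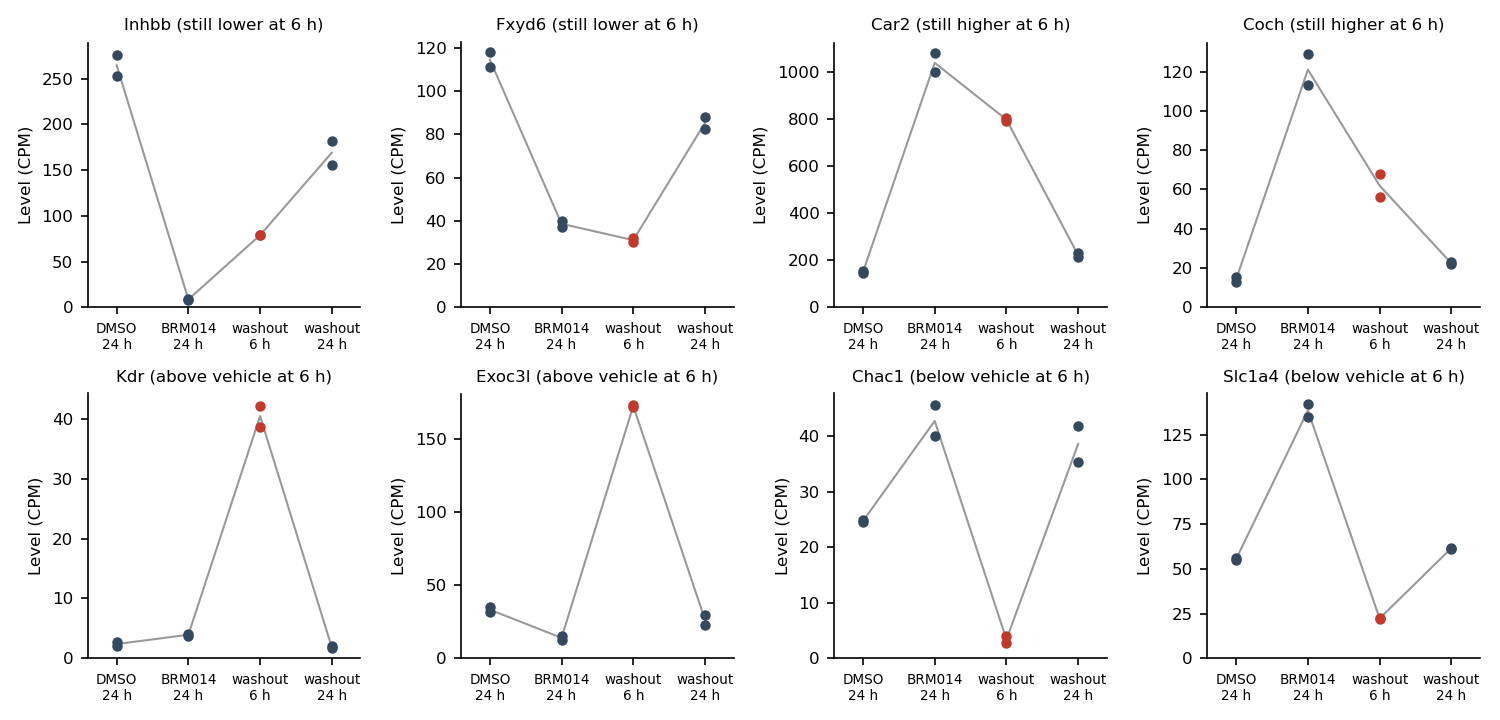
Level per library (CPM, axis from 0) of 8 genes in DMSO 24 h, BRM014 24 h, washout 6 h (red) and washout 24 h, with grey lines joining group means. Inhbb and Fxyd6 are below vehicle at 6 h, Car2 and Coch above it, Kdr and Exoc3l peak at 6 h (means 40.5 and 172 CPM), and Chac1 and Slc1a4 are lowest at 6 h.

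ATF4 is the transcription factor of the integrated stress response, and its targets build and import amino acids. Of 14 tested genes of an ATF4 and amino acid response list, 12 were called lower after washout and 0 higher, with a median log2 change of -0.84 beside 0.02 over all genes. For this list and those that follow, 20.8% of all genes were called higher and 19% lower. Trib3, a pseudokinase that feeds back on ATF4, had 20.8 and 21.5 CPM after washout, against 69.3 and 66.5 CPM in DMSO (log2 -1.68 ± 0.08). Psat1, of serine synthesis, had 417 and 406 CPM after washout, against 793 and 866 CPM in DMSO (log2 -1.01 ± 0.05). Nupr1, a stress-induced chromatin protein, had 5.80 and 5.89 CPM after washout, against 23.1 and 19.8 CPM in DMSO (log2 -1.88 ± 0.16). Phgdh, the first enzyme of serine synthesis, had 108 and 113 CPM after washout, against 212 and 195 CPM in DMSO. At the end of the drug treatment Trib3 averaged 92.0 CPM and Chac1 42.8 CPM, both above DMSO, whereas Psat1 averaged 597 CPM and Phgdh 124 CPM, both below it. With the inactive analog for 24 h, Trib3 and Chac1 were higher still, at means of 119 and 52.2 CPM. In the second batch the drug was not called to change Trib3 (log2 0.04), and Chac1 was called higher by 0.33. After 24 h of washout Trib3 averaged 78.4 CPM and Chac1 38.6 CPM. Low levels were not particular to the washout: after 3 h and 6 h of BRM014, Chac1 averaged 2.63 and 3.83 CPM and Trib3 25.8 and 26.7 CPM. Vehicle time touches this list: over DMSO 1 h, 5 of the 14 were called lower and 2 higher (median log2 -0.18), with Psat1 no longer called (-0.06, adjusted p = 0.403) and Chac1 and Trib3 still lower by -2.34 and -1.54.

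Promoters of 3 of these genes are shown as examples of those that hold the core of the amino acid response element, TGATGNAA, in the 250 bases before the start of transcription (RefSeq, GRCm38.p6). Capitals mark the match, on either strand, and sequences run 5′ to 3′ along the gene. They lie at chr2:119350992-119351241 (plus strand) for Chac1, chr7:126625471-126625720 (minus strand) for Nupr1 and chr6:7693210-7693459 (minus strand) for Asns. Asns, asparagine synthetase, had 381 and 385 CPM after washout, against 565 and 601 CPM in DMSO (log2 -0.61 ± 0.05).
Chac1: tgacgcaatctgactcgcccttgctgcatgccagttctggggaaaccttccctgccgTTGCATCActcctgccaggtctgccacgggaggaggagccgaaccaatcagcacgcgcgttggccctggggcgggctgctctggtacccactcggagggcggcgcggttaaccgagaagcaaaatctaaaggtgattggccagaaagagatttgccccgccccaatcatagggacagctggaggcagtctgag
Nupr1: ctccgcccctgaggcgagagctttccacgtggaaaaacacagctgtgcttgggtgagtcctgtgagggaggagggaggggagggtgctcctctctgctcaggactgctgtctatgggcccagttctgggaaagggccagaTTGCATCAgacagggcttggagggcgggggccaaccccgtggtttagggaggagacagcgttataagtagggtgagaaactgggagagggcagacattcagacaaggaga
Asns: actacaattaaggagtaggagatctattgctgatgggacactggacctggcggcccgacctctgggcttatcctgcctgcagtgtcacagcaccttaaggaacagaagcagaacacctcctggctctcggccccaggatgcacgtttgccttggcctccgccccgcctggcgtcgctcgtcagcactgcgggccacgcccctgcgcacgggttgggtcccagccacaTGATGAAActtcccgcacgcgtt
Over windows that also take in the first 50 bases after the start, the motif was present in 5 of the 12 tested list members with a promoter in the table (41.7%; Chac1, Nupr1, Asns, Trib3 and Vldlr). It was present in 246 of 9023 tested genes (2.73%) and in 1304 of all 32851 promoters (3.97%). The motif was chosen with the fall of the list known, and a match is a description of letters, not a binding site.

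FGF signalling through ERK drives ES cells towards differentiation and induces its own brakes. Of 17 tested FGF and ERK feedback genes, 14 were called higher and 2 lower (median log2 0.42). Dusp6, an ERK phosphatase, had 364 and 363 CPM after washout, against 136 and 149 CPM in DMSO (log2 1.35 ± 0.06). Dusp4, a nuclear MAP kinase phosphatase, had 104 and 100 CPM after washout, against 32.9 and 36.3 CPM in DMSO (log2 1.56 ± 0.09), and Dusp5 had 31.1 and 31.0 CPM after washout, against 10.0 and 11.2 CPM in DMSO. In all 3 the washout libraries were above the 24 others of the batch. Dusp6 was already at a mean of 335 CPM at the end of the drug treatment, and its washout level was not called over that (log2 0.12). Dusp4 and Dusp5 averaged 32.9 and 16.7 CPM with the drug and were called higher after washout (log2 1.63 and 0.89). Etv5, an ETS factor downstream of ERK, had 669 and 662 CPM after washout, against 421 and 469 CPM in DMSO. Among the 4 ligands tested, Fgf5 and Fgf17 were called higher and the other two lower: Fgf4, the main FGF of ES cells, had 240 and 231 CPM after washout, against 352 and 383 CPM in DMSO (log2 -0.64 ± 0.06), and Fgf15 was lower by -0.81. Over DMSO 1 h, 11 of the 17 were called higher and 1 lower.

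Immediate early genes, which serum and growth factors induce within minutes, were called higher in 11 of 19 and lower in 1 (median log2 0.40); without washout replicate 1 the count of higher genes was 7. Fos had 8.26 and 6.80 CPM after washout, against 4.41 and 3.98 CPM in DMSO (log2 0.84 ± 0.17). Klf6, a zinc finger factor, had 180 and 175 CPM after washout, against 109 and 116 CPM in DMSO. Means at the end of the drug treatment were 8.13 CPM for Fos and 221 CPM for Klf6. The exception was Btg2, an antiproliferative gene, at 83.7 and 78.1 CPM after washout and 109 and 128 CPM in DMSO (log2 -0.55), which was higher by 0.39 over DMSO 1 h.

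Pluripotency genes were called in both directions. Of 17 tested core pluripotency genes 9 were called higher and 3 lower (median 0.16), and of 16 naive genes 5 and 5 (median 0.01); without washout replicate 1 or DMSO replicate 2, 3 naive genes were higher. Pou5f1, which encodes OCT4, had 1750 and 1660 CPM after washout, against 1770 and 1510 CPM in DMSO, and was not called. Nanog had 400 and 387 CPM after washout, against 491 and 572 CPM in DMSO (log2 -0.43 ± 0.07). Lin28b, an RNA-binding regulator of let-7, had 57.5 and 58.6 CPM after washout, against 105 and 120 CPM in DMSO, below every other library of the batch. Formative and primed genes, which mark the exit from the naive state, were called higher in 7 of 8 and lower in 0 (median 0.44). Zic2 had 15.4 and 15.8 CPM after washout, against 8.95 and 7.44 CPM in DMSO. Dnmt3b, a de novo DNA methyltransferase, had 603 and 578 CPM after washout, against 469 and 474 CPM in DMSO. With the drug for 24 h, Zic2 averaged 32.8 CPM and Dnmt3b 618 CPM.

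Some genes of other lineages were higher after washout than in DMSO, mostly at low levels. Primitive streak and mesoderm genes were called higher in 6 of 13 and lower in 0 (median 0.40); without DMSO replicate 1 the count was 3. T, the Brachyury factor of the primitive streak, had 5.18 and 5.09 CPM after washout, against 0.872 and 0.944 CPM in DMSO (log2 2.49 ± 0.33), and no other library passed 1.33 CPM. The 7 mesoderm markers summed to 10.3 and 10.7 CPM after washout, against 4.73 and 5.56 CPM in DMSO, with Msgn1 and Foxf1 at 0 in all 4 libraries; their part in the result was not tested. Of 14 endothelial and early haematopoietic genes 5 were called higher (Kdr, Esam, Robo4, Vcam1 and Icam1) and 1, Cdh5, lower. Cdh5, VE-cadherin, had 1.87 and 2.07 CPM after washout, against 4.18 and 6.92 CPM in DMSO, and Tek, Etv2, Tal1 and Gata1 were not called. Vcam1, a vascular adhesion molecule, had 5.89 and 4.79 CPM after washout, against 0.275 and 0.157 CPM in DMSO, where 6 and 3 counts lie behind the values. Its mean was 7.95 CPM at the end of the drug treatment, and the washout level was called lower than that (log2 -0.57).

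Of 8 neural progenitor genes 3 were called higher and 2 lower, or 1 lower without washout replicate 2 or DMSO replicate 2. Nes, the intermediate filament nestin, had 127 and 118 CPM after washout, against 53.1 and 53.6 CPM in DMSO (log2 1.20 ± 0.08). Nes supplied most of the summed neural markers given above, while Sox1, Zfp521 and Tubb3 were at 0 in all 4. Pax6, an eye and forebrain factor, had 19.0 and 19.8 CPM after washout, against 8.49 and 7.34 CPM in DMSO. Of 13 Wnt target genes 4 were called higher and 3 lower. Both lists of this paragraph stand beside 20.8% of all genes called higher and 19% lower. Ccnd1, cyclin D1, had 139 and 137 CPM after washout, against 305 and 329 CPM in DMSO (log2 -1.20 ± 0.05), and Id3, a BMP target, had 58.3 and 54.8 CPM after washout, against 22.4 and 19.2 CPM in DMSO (log2 1.44 ± 0.13).

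Genes of the 2-cell-like state, a rare state of ES cultures that resembles the early embryo, were called higher in 14 of 17 and lower in 1 (median log2 1.94). They follow different courses. Trim43b had 19.9 and 15.2 CPM after washout, against 0.321 and 0.262 CPM in DMSO (log2 5.87 ± 0.36), with means of 13.1 CPM at the end of the drug treatment and 0.366 CPM after 24 h of washout. Zscan4c, of a gene family that marks this state, had 17.8 and 14.6 CPM after washout, against 5 and 3.98 CPM in DMSO (log2 1.84 ± 0.17), with means of 3.55 CPM with the drug and 33.9 CPM after 24 h of washout. Zscan4, Trim43 and Usp17l genes have near-identical copies whose reads the counting could have split or dropped, so the values of single members are uncertain. Germline and meiosis genes were called higher in 12 of 20 and lower in 1 (median 0.39). Dazl, an RNA-binding protein of germ cells, had 50.4 and 50.2 CPM after washout, against 23.2 and 26.6 CPM in DMSO.

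Sterol synthesis genes were called lower in 10 of 19 and higher in 1 (median -0.23). Dhcr7, the last enzyme of cholesterol synthesis, had 16.6 and 17.7 CPM after washout, against 31.5 and 33.3 CPM in DMSO (log2 -0.92 ± 0.12). Msmo1 had 71.1 and 69.6 CPM after washout, against 107 and 110 CPM in DMSO. G2/M and mitosis genes were called lower in 8 of 17 and higher in 1 (median -0.20). Hmmr, of the mitotic spindle, had 298 and 315 CPM after washout, against 463 and 497 CPM in DMSO. Ribosomal protein genes were called in neither direction among 16; without DMSO replicate 1, 6 of them were called higher.

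Calls for targets of p53, the DNA damage response factor, depended in part on the choice of vehicle. Of 17 tested targets 5 were called lower and 1 higher over DMSO 24 h (median -0.11; 19% and 20.8% of all genes), and 14 were called higher and 1 lower over DMSO 1 h (median 0.47; 19.4% and 18.3% of all genes). Perp was lower over both vehicles (-0.46 and -0.38) and Aen higher over both (0.49 and 0.55). Plk2, a p53-induced kinase, had 119 and 109 CPM after washout, against 147 and 160 CPM in DMSO 24 h and a mean of 96.8 CPM in DMSO 1 h.

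**Figure D4:**
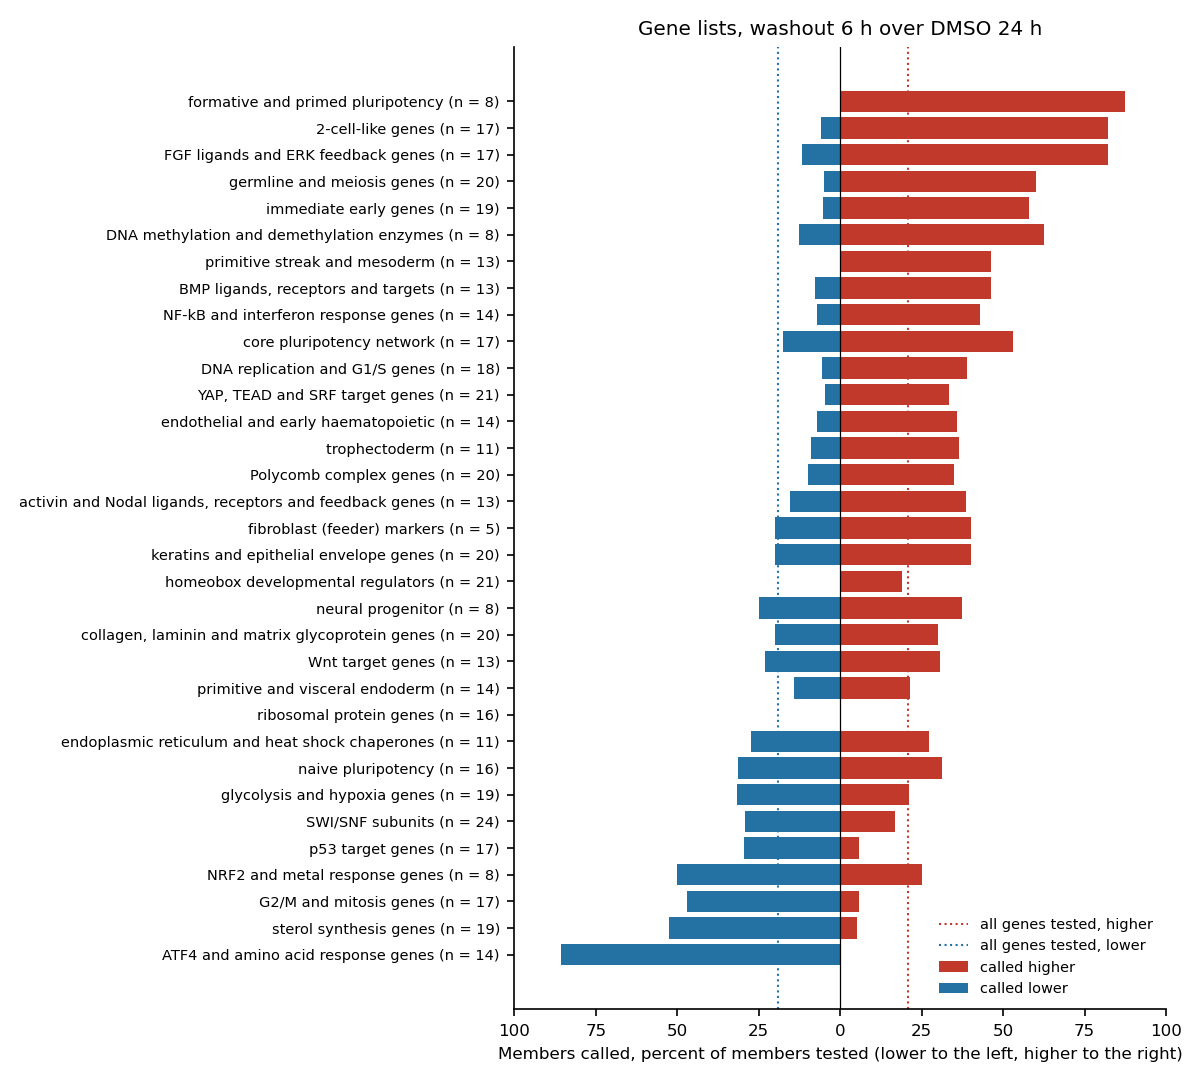
Share of tested members called higher (red, to the right) and lower (blue, to the left) at washout 6 h over DMSO 24 h in 33 gene lists, with dotted lines at the shares over all genes tested (20.8% and 19%). The ATF4 list has 12 of 14 members lower, and the FGF and ERK, 2-cell-like and formative lists have most members higher.

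The named genes were set against both vehicle times. Of the 12 named rises and 12 named falls, all 24 kept their direction and their call over DMSO 1 h. Of all genes, 19.4% were called higher and 18.3% lower over that vehicle. The 24 were picked as large changes in the same washout libraries, so their agreement is partly fixed by that choice. Kdr was higher by 3.15, Car2 by 1.88 and Dusp27 by 2.37 over DMSO 1 h, and Irgm1 by 0.64. Chac1 was lower by -2.34 and Nupr1 by -0.82.

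**Figure D5:**
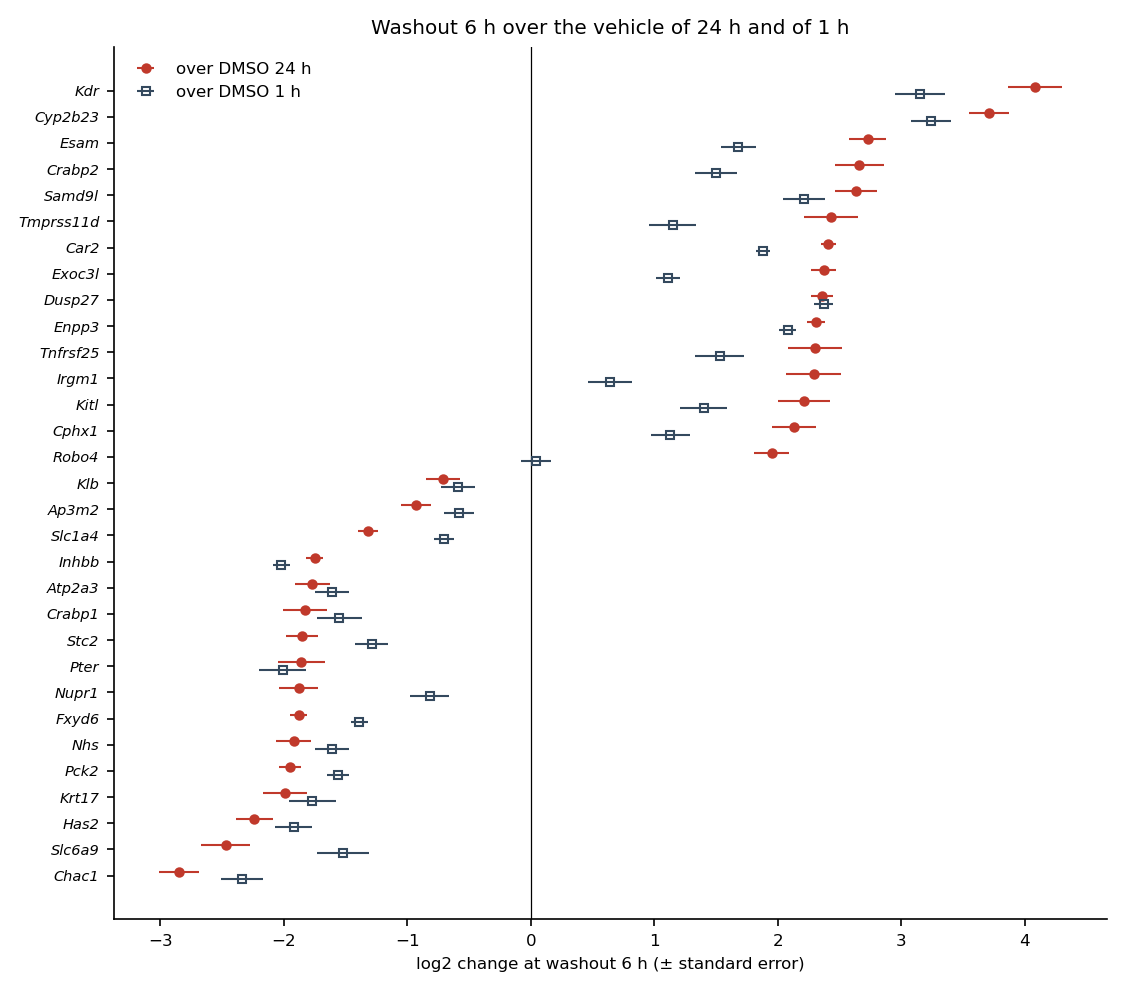
Log2 change of washout 6 h (± standard error) over DMSO 24 h (red circles) and over DMSO 1 h (open squares) for the genes named as rises, falls or members of the drug classes. Robo4 is at 1.95 over DMSO 24 h and 0.04 over DMSO 1 h; the other genes lie on the same side of 0 for both vehicles.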

How the data were processed

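The deposited values are raw counts per gene for 38 libraries of TruSeq stranded total RNA; all columns were matched to samples. Per the submitters' processing notes, the authors used bcl2fastq 2.17, STAR and the GRCm38 (mm10) assembly. The counting program and gene models were not given in the sources used here. Exonic bases per gene, also deposited, entered no test.

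The 26 libraries of the first batch (13 groups of 2) were fitted together in edgeR 4.0.16 (R 4.3.3): genes were kept by filterByExpr with groups (counts of at least 10, totals of at least 15), scaled by TMM and tested by the robust quasi-likelihood F-test with 13 residual degrees of freedom (biological coefficient of variation 6.2%) and Benjamini-Hochberg adjustment. Standard errors were derived from the F statistic. The second batch had its own fit of 13130 genes over its 12 libraries, those of the knockout lines included. The drug response was the contrast of its wild-type groups. Alternatives included DESeq2 1.42.0. The fit was tested on simulated data. Replicate libraries correlated at 0.9978 (washout) and 0.9958 (DMSO) and varied by more than counting error.

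Named genes were, by rule, the 12 largest rises and 12 largest falls (called, at least 2-fold, mean log2 CPM of at least 2 over the 4 libraries, groups not overlapping, no predicted gene symbols), up to 6 per drug class at 1.5-fold or more, up to 5 lowered and 5 raised genes back at vehicle level, and up to 4 called members per list. Other list members named in the text were chosen after their values were seen. The members and lists were chosen with earlier results of these data known. Gene coordinates are from GENCODE M21. Some genes are not reported here.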

Additional observations from a re-analysis of the deposited data

Results flagged for a closer look

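For 12 of the 154 named genes the washout groups were called on opposite sides of DMSO 24 h. Levels were lower at one time and higher at the other, and the difference between the washout times was itself called by edgeR. The washout values share the DMSO libraries, and the difference of 24 h minus 6 h does not use them. That difference does use the 6 h libraries on which the genes were named, so a return is partly fixed by the choice. The share over all genes was not computed, so the count is a description. Among genes low at 6 h, the log2 difference was 3.49 for Chac1, 2.96 for Nupr1, 2.40 for Stc2 and 2.22 for Pck2. Nupr1, for instance, was at -1.88 at 6 h and at 1.08 after 24 h of washout, both over DMSO 24 h. Among genes high at 6 h, the log2 difference was -3.28 for Samd9l, -2.71 for Exoc3l, -2.50 for Fgfbp1, which encodes an FGF carrier protein, and -2.45 for Robo4. It was -1.48 for Nes, -1.33 for Eomes, -0.57 for Vcl and -0.46 for Hspa5. The 24 h values of several lay close to DMSO: Vcl was at -0.16 (adjusted p = 0.0462) and Robo4 at -0.50 (adjusted p = 0.0443).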

How the results depend on the processing

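Other tests, scalings, filters and sets of libraries kept the counts of called genes within 1.5 times; DESeq2 called 2298 genes higher and 2326 lower. Leaving out each of the 4 libraries gave 1816 to 2384 higher and 1713 to 2280 lower, 552 to 700 and 251 to 299 at 2-fold, 225 to 244 drug-lowered genes still lower, 129 to 147 now higher, 215 to 243 drug-raised genes still higher, and 10 to 17 now lower. Against the inactive analog at 24 h, 144 drug-lowered genes were lower and 331 higher, and 57 drug-raised genes were lower. With drug classes cut at 1.5-fold these counts were 446, 281, 509 (raised, still higher) and 75; at 4-fold they were 105, 64, 60 and 0. The cause was not tested, apart from the class sizes that the cuts set. Replicate numbers did not pair the libraries: deviations of same-numbered washout and DMSO libraries correlated at 0.10, and a replicate block gave 2626 higher and 2372 lower genes, with Bmi1 then called. Named genes turned direction in 2 settings. Over DMSO 1 h they were Mettl7a1 0.37, Ncam1 0.30, Cdc45 -0.06, Btg2 0.39, Bmp4 -0.50, Ifitm3 0.15, Tcf15 -0.13, Cdx1 -0.72, Dnmt3a -0.07, Uhrf1 -0.02 and Plk2 0.23. Over the inactive analog they included Hdc 2.02, Wnt7b 0.46, Coro2b 0.62, Ildr1 0.47, Atf3 -0.16, Bmi1 -0.58, Cdc45 -0.02, Btg2 0.57, Nqo1 0.28, Six4 -0.02, Bcl11b 0.21, Plk2 0.78 and Perp 0.42.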

Other observations

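Further gene groups were described in the same comparison, in which 20.8% of all genes were called higher and 19% lower. Of 20 collagen, laminin and matrix genes 6 were called higher and 4 lower; the count of lower genes was 8 without DMSO replicate 1 and 2 without washout replicate 2. Coch, a secreted cochlin, had 67.8 and 56.1 CPM after washout, against 15.6 and 13 CPM in DMSO. Thbs2, a thrombospondin, had 5.62 and 5.09 CPM after washout, against 0.275 and 0.524 CPM in DMSO. Both were higher at the end of the drug treatment, with means of 121 CPM for Coch and 13.5 CPM for Thbs2. Of 20 keratin and epithelial envelope genes 8 were called higher and 4 lower. Tgm1, a transglutaminase of the skin barrier, had 63.2 and 60.3 CPM after washout, against 158 and 152 CPM in DMSO. Esrp1, an epithelial splicing factor, had 77.5 and 83.6 CPM after washout, against 31.1 and 38.6 CPM in DMSO.

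Of 13 activin and Nodal genes 5 were called higher and 2 lower. The counts of this paragraph stand beside 20.8% of all genes called higher and 19% lower. Foxh1, a cofactor of SMAD proteins, had 45.5 and 42.6 CPM after washout, against 22.4 and 19.7 CPM in DMSO. Of 24 SWI/SNF subunit genes 4 were called higher and 7 lower (2 higher without DMSO replicate 2), and Smarcd3 had 6.74 and 8.77 CPM after washout, against 22.3 and 17.5 CPM in DMSO. Of 20 Polycomb genes 7 were called higher and 2 lower, and Ezh2, the histone H3 methyltransferase of the complex, had 141 and 140 CPM after washout, against 207 and 219 CPM in DMSO. Of 11 chaperone genes 3 were called higher and 3 lower, and Xbp1, a factor of the unfolded protein response, had 156 and 175 CPM after washout, against 84.4 and 92.9 CPM in DMSO.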
